A study of Mus musculus with 13 samples.

Results

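The 42 genes described here copy DNA or supply the deoxynucleotides it is made from, and they were taken by gene symbol from a list, as 42 of the 20270 genes in the count and TPM tables of mouse lung RNA. All 42 were in the tables and all 42 passed the filter on low counts. By role they are 5 genes of origin licensing, 6 MCM helicase subunits, 6 genes of helicase activation, 4 of primase and DNA polymerase alpha, 5 of DNA polymerases delta and epsilon, 6 of the sliding clamp and its loader, 5 of single-strand binding and Okazaki fragment joining, and 5 of deoxynucleotide supply. The libraries came from the lungs of 13 mice: 4 wildtype control mice, which the methods of the study describe as given saline vehicle, 5 wildtype mice given bleomycin (WT bleomycin), and 4 mice with a global deletion of Cnr1, the gene of the cannabinoid receptor CB1R, also given bleomycin (CB1R KO bleomycin). Bleomycin, an antitumor agent that breaks DNA strands and leads to lung fibrosis in mice, was given once by oropharyngeal aspiration at 1 U per kg, and the lower right lobe was taken 14 days later. The purchased C57BL/6J mice were male and 13 weeks old, and the deletion was carried on a C57BL/6J background in every cell. The age of the CB1R KO mice was not given in the sources used here, and the methods of the study do not state their sex. Lungs of CB1R KO mice given vehicle were not analysed here. Mice are named by the numbers in their labels, and per-mouse values below follow the order 3, 21, 24 and 26 for control, 4, 2, 5, 4-B2 and 7 for WT bleomycin, and 8, 9, 10 and 11 for CB1R KO bleomycin. The labels 4 and 4-B2 share a number and were taken as different mice.

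Before S phase, the origin recognition complex with Cdc6 and Cdt1 loads the MCM helicase, a ring of Mcm2 to Mcm7, onto DNA, and geminin (Gmnn) then blocks further loading. Cdc45 and the GINS complex join the ring to make the active helicase, with Mcm10 needed for the firing of the origin. DNA polymerase alpha with primase starts each strand, DNA polymerase epsilon extends the leading strand, DNA polymerase delta extends the lagging strand on the Pcna clamp, and Fen1 and Lig1 join the Okazaki fragments. Ribonucleotide reductase (Rrm1 with Rrm2), thymidylate synthase (Tyms), thymidine kinase 1 (Tk1) and dUTPase (Dut) supply or clean the deoxynucleotide pool. Many of these genes are textbook targets of E2F transcription factors, which act at the passage into S phase, and in a resting adult lung few cells divide.

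Promoters were read from RefSeq (build GRCm38.p6), which had an entry for 34 of the 42 genes and none for Prim2, Gins4, Gins2, Pole, Mcm4, Rfc2, Gins1 and Gmnn. Each promoter covers 250 bases before and 50 after a transcript start. On both strands, the E2F octamers TTTCCCGC, TTTGGCGC, TTTGCCGC and TTTCGCGC and the pentamer CCAAT were searched, with overlapping matches allowed. Some genes have several promoters, and a gene was counted if any of them held a match. An E2F octamer was present in 14 of the 34 genes (41.2%), against 2.6% of the 27025 genes in the promoter table and 3.56% of the 15749 that were also in the count table. CCAAT was present in 21 of the 34 (61.8%), against 41.1% of the 27025. A match describes the letters and does not show binding. Each stretch below is the longest run of bases before the transcript start outside every GENCODE exon of that build. Short runs were left out. The stretches belong to the genes with the largest rise after bleomycin among those with an E2F octamer in such a stretch, shown with the octamers in capitals. Orc1 and Rfc3 rose more than Pola1 and held an octamer before the start, but not within such a stretch. The last stretch is that of Rrm2, the gene with the largest rise of the 42, which held no E2F octamer and is shown with its CCAAT match (written on the strand of the gene) in capitals.
Cdc6: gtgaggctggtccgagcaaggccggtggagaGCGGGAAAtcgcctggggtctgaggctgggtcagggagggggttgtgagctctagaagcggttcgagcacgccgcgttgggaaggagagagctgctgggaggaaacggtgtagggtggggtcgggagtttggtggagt
Mcm5: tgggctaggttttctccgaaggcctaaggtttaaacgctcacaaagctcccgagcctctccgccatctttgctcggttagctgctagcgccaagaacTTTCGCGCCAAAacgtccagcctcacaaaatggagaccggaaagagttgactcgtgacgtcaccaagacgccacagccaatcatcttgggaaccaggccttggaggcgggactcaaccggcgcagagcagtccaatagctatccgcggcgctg
Mcm6: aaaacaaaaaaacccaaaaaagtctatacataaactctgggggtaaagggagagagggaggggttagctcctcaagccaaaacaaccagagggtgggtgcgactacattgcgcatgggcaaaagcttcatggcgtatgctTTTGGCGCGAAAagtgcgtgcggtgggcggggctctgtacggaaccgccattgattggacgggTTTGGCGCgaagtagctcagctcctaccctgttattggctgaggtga
Pola1: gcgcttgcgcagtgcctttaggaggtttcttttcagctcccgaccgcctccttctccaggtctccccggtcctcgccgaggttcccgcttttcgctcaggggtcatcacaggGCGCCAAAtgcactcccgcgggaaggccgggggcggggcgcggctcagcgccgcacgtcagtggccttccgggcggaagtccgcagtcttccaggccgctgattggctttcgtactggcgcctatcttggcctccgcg
Rrm2: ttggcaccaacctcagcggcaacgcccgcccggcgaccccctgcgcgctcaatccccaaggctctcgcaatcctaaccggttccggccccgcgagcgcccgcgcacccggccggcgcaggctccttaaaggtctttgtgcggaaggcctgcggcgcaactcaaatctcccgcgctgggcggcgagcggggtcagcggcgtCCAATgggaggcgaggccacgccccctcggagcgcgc
The stretches are 5′ to 3′ on the strand of the gene: that of Cdc6 at chr11:98907982-98908150 (plus strand), that of Mcm5 at chr8:75109259-75109508 (plus strand), that of Mcm6 at chr1:128359706-128359955 (minus strand), that of Pola1 at chrX:93632156-93632405 (minus strand) and that of Rrm2 at chr12:24708004-24708240 (plus strand). In Mcm5, and in the first run of capitals in Mcm6, octamers on both strands overlap.

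Library totals were between 14615904 and 16662580 estimated counts in 12 libraries, and 53463884 in CB1R KO mouse 11, which is 3.33 times the median of the others. Cnr1 does not check the genotype: it was counted at 4.10, 1.62, 2.88 and 2.06 CPM (counts scaled to a common library total) in control lungs, 6.97, 5.68, 6.56, 3.46 and 6.17 in WT bleomycin lungs, and 5.62, 2.47, 4.60 and 3.47 in the lungs labelled CB1R KO. The part of the gene that was deleted is not given in the sources used here, and whether these reads lie outside it was not tested. The lung itself was recognisable, with the 6 type II cell markers (Sftpc, Sftpb, Sftpa1, Lamp3, Abca3 and Slc34a2) summing to between 18960 and 37200 TPM in every library. In bulk tissue, a change in the number of dividing cells and a change in the RNA per cell cannot be told apart.

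The first question was which replication genes differ after bleomycin in wildtype lung. Bleomycin was accompanied by higher levels of most of the replication genes: 31 of the 42 rose, 0 fell and 11 did not pass the test (edgeR quasi-likelihood test, Benjamini-Hochberg adjusted p under 0.05). In the same comparison 48.9% of the 15315 genes tested passed, with 25.0% higher and 23.9% lower. The median log2 fold change of the 42 was 0.76, or 1.69-fold, while the median of all genes tested was -0.01. In 29 of the 42 the lowest WT bleomycin lung stood above the highest control lung, which held for 21.5% of all genes. Rises were spread unevenly over the machinery: 6 of 6 MCM subunits, 5 of 6 genes of helicase activation, 5 of 5 of deoxynucleotide supply and 4 of 5 of origin licensing rose, but only 2 of 5 genes of DNA polymerases delta and epsilon and 2 of 5 of single-strand binding and fragment joining did. Of the libraries, 1 control and 2 WT bleomycin carry labels in capitals where the others are in lower case. With the lower-case libraries alone, 26 of the 42 rose, against 19.7% of all genes.

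**Figure D1:**
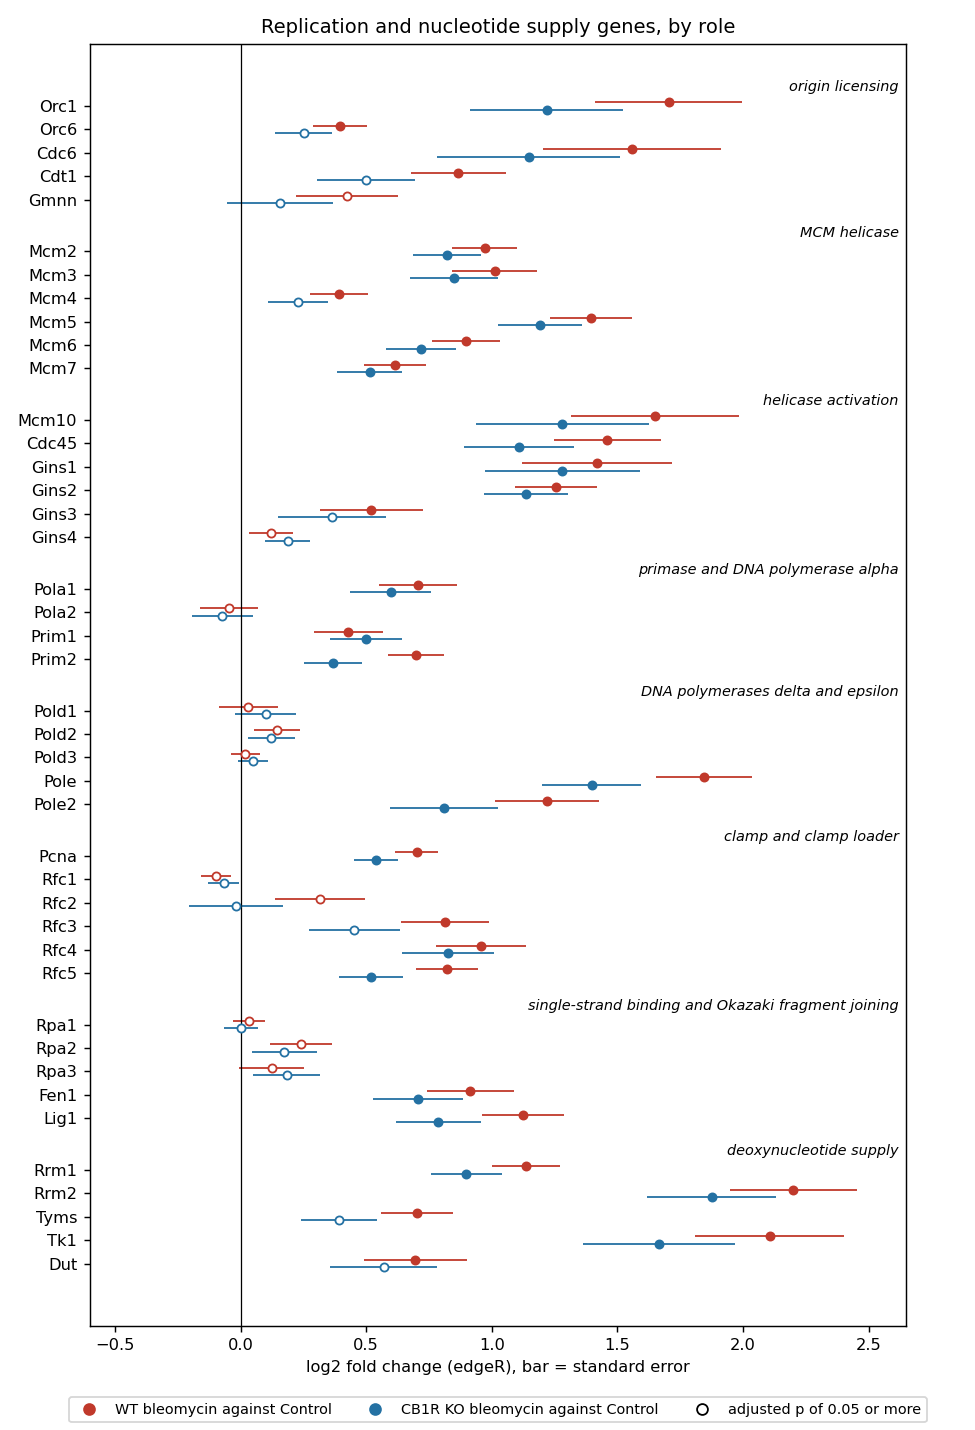
Log2 fold change of each of the 42 genes by role (horizontal axis, edgeR, bars are standard errors) for WT bleomycin against control in red and CB1R KO bleomycin against control in blue, with open circles where the adjusted p was 0.05 or more. Red points run from -0.10 for Rfc1 to 2.20 for Rrm2. Those of the listed subunits of DNA polymerase delta and of replication protein A run from 0.02 for Pold3 to 0.24 for Rpa2.

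Among the licensing genes, Orc1 and Cdc6 showed the largest rise. Orc1, the largest subunit of the origin recognition complex, was counted at 0.832, 1.14, 0.384 and 0.644 CPM in control lungs, 2.34, 2.22, 2.31, 3.04 and 2.47 in WT bleomycin lungs and 1.37, 1.27, 2.36 and 1.99 in CB1R KO bleomycin lungs. Every WT bleomycin lung was above every control lung, a rise of 3.26-fold (log2 fold change 1.71 ± 0.29 (SE), adjusted p = 0.000254). Cdc6, the ATPase that recruits the helicase to origins, was at 1.78, 3.00, 2.05 and 2.83 CPM in control, 5.64, 7.17, 7.56, 8.72 and 6.60 in WT bleomycin and 2.81, 2.23, 7.39 and 8.49 in CB1R KO bleomycin lungs. The WT bleomycin lungs again lay above the control lungs without overlap (2.95-fold, log2 fold change 1.56 ± 0.35 (SE), adjusted p = 0.00222), while CB1R KO mice 8 and 9 stood within the control range. Cdt1, the partner of Cdc6 in loading, rose 1.82-fold, with 5.15 to 10.6 CPM in control and 11.7 to 15.7 in WT bleomycin lungs. Orc6, the smallest subunit of the complex, rose 1.32-fold with groups that overlapped, at 10.4 to 13.2 against 12.7 to 17.3 CPM. The inhibitor of licensing, Gmnn, did not pass the test: it was at 9.21, 10.4, 11.1 and 7.86 CPM in control, 11.5, 12.97, 12.2, 17.2 and 11.1 in WT bleomycin and 7.59, 7.84, 12.7 and 14.5 in CB1R KO bleomycin lungs (log2 fold change 0.42 ± 0.20 (SE), adjusted p = 0.0962). The lowest WT bleomycin lung was level with the highest control lung for Gmnn, and its adjusted p was 0.0382 when edgeR was run on these 2 groups alone.

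All 6 subunits of the MCM ring rose in WT bleomycin lungs, with no overlap between the groups in any of them, but by unequal amounts. Mcm5 had the largest rise, from 15.1, 19.1, 14.9 and 15.5 CPM in control lungs to 40.2, 45.8, 43.9, 48.3 and 34.5 in WT bleomycin lungs, with 27.99, 28.4, 43.9 and 46.7 in CB1R KO bleomycin lungs (2.63-fold, log2 fold change 1.40 ± 0.16 (SE), adjusted p = 9.72e-06). Mcm3 followed, at 23.2, 29.98, 25.9 and 24.3 CPM in control, 51.3, 53.9, 53.2, 59.2 and 43.1 in WT bleomycin and 35.2, 32.99, 58.03 and 59.3 in CB1R KO bleomycin lungs (2.02-fold, log2 fold change 1.01 ± 0.17 (SE), adjusted p = 0.000211). CB1R KO mice 8 and 9 lay between the control and WT bleomycin lungs in both genes, and mice 10 and 11 lay within or above the WT bleomycin range. Mcm2 rose 1.96-fold, Mcm6 1.86-fold, Mcm7 1.53-fold and Mcm4 1.31-fold, which was the smallest rise of the 6 (log2 fold change 0.39 ± 0.12 (SE), adjusted p = 0.0113).

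On the length-corrected TPM scale, where levels of different genes can be compared, the 6 MCM transcripts together stood at 87.9 TPM ± 6.3 (SD, n = 4) in control, 157.5 ± 13.4 (n = 5) in WT bleomycin and 144.6 ± 34.9 (n = 4) in CB1R KO bleomycin lungs. The make-up of this sum was more even in WT bleomycin than in control lungs. Mcm5, the scarcest subunit in control lungs at 9.89% ± 0.51 of the sum, made up 15.0% ± 0.9 in WT bleomycin and 14.5% ± 0.4 in CB1R KO bleomycin lungs. Mcm7, the most abundant, went from 27.5% ± 2.7 to 21.0% ± 1.1 and 22.1% ± 1.9, and Mcm4 from 16.7% ± 0.7 to 12.7% ± 0.7 and 12.7% ± 0.6. The ranges of control and WT bleomycin lungs did not overlap for Mcm5, Mcm7 or Mcm4. Nor did they for Mcm2 (10.65% to 11.9% against 12.43% to 13.25%) and Mcm3 (13.73% to 15.17% against 15.7% to 17.21%). They overlapped for Mcm6. Shares of 1 sum are tied to each other, and they were not tested.

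**Figure D2:**
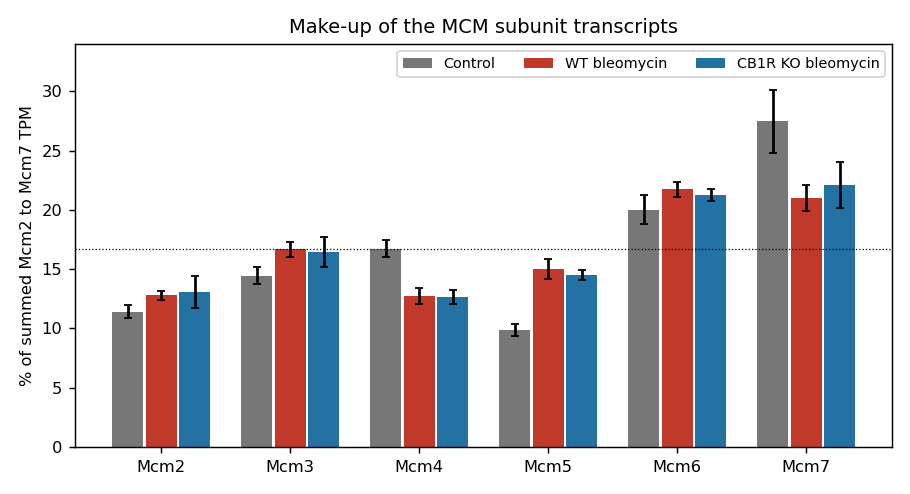
Share of each subunit in the summed TPM of Mcm2 to Mcm7 (vertical axis, percent), as the mean of the mice of each group with SD bars. The dotted line marks equal shares. Mcm5 rises from 9.89% in control to 15.0% in WT bleomycin lungs, and Mcm7 falls from 27.5% to 21.0%.

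Helicase activation held some of the largest rises. Mcm10, which is not part of the ring, was at 2.02, 2.34, 2.24 and 0.709 CPM in control, 6.02, 6.05, 6.12, 5.95 and 4.69 in WT bleomycin and 3.01, 2.35, 5.72 and 6.44 in CB1R KO bleomycin lungs. The rise was 3.14-fold without overlap (log2 fold change 1.65 ± 0.33 (SE), adjusted p = 0.000968). Cdc45 was at 2.91, 3.91, 3.97 and 3.42 CPM in control, 9.31, 9.51, 8.62, 12.2 and 9.20 in WT bleomycin and 4.58, 6.70, 8.51 and 10.4 in CB1R KO bleomycin lungs (2.75-fold, log2 fold change 1.46 ± 0.21 (SE), adjusted p = 6.62e-05). Every bleomycin-treated lung, of either genotype, was above every control lung for Cdc45, and also for Mcm10, where CB1R KO mouse 9 was just above the highest control lung. The 4 GINS subunits did not move alike: Gins1 rose 2.67-fold and Gins2 2.39-fold. Gins3 rose 1.43-fold, close to the threshold (adjusted p = 0.0483) and with groups that overlapped, and it passed the test under 16 of 26 alternatives (adjusted p up to 0.127). Gins4 did not pass the test, at 19.8, 21.2, 20.9 and 21.9 CPM in control, 21.9, 22.5, 23.7, 23.2 and 22.9 in WT bleomycin and 19.9, 22.3, 26.7 and 26.3 in CB1R KO bleomycin lungs (log2 fold change 0.12 ± 0.09 (SE), adjusted p = 0.263). The 95% interval of its log2 fold change was -0.06 to 0.31, and the lowest WT bleomycin lung was level with the highest control lung.

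Of primase and DNA polymerase alpha, both primase subunits and the catalytic subunit of the polymerase rose, and its accessory subunit did not pass the test. Pola1, the catalytic subunit, was at 9.03, 9.67, 10.8 and 12.1 CPM in control, 17.2, 16.4, 16.6, 17.9 and 16.9 in WT bleomycin and 13.02, 11.5, 16.96 and 20.9 in CB1R KO bleomycin lungs (1.63-fold, log2 fold change 0.71 ± 0.15 (SE), adjusted p = 0.00168). Prim2, the large subunit of primase, was at 6.18, 7.45, 7.43 and 7.09 CPM in control, 11.6, 11.1, 10.8, 13.01 and 10.7 in WT bleomycin and 8.89, 8.02, 10.4 and 9.06 in CB1R KO bleomycin lungs (1.62-fold, log2 fold change 0.70 ± 0.11 (SE), adjusted p = 0.000139). For both genes the 5 WT bleomycin lungs stood above the 4 control lungs. Prim1, the catalytic subunit of primase, rose 1.35-fold, from 5.57 to 7.03 CPM in control to 7.44 to 9.50 in WT bleomycin lungs. Pola2, the accessory subunit, was at 18.2, 17.9, 20.4 and 22.2 CPM in control, 20.02, 19.5, 18.9, 18.9 and 17.96 in WT bleomycin and 16.5, 15.1, 19.4 and 23.3 in CB1R KO bleomycin lungs, and its WT bleomycin values lay inside the control range (log2 fold change -0.05 ± 0.12 (SE), adjusted p = 0.765, 95% interval -0.29 to 0.20).

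The listed subunits of the polymerases that extend the strands differed from each other. Pole, the catalytic subunit of DNA polymerase epsilon, was at 3.98, 5.53, 3.97 and 4.00 CPM in control, 12.9, 17.5, 14.5, 17.9 and 15.9 in WT bleomycin and 8.96, 8.44, 13.1 and 15.2 in CB1R KO bleomycin lungs. This was a rise of 3.59-fold, and every treated lung was above every control lung (log2 fold change 1.85 ± 0.19 (SE), adjusted p = 3.36e-06). Its second subunit Pole2 was at 2.73, 3.12, 1.73 and 2.64 CPM in control, 5.96, 5.93, 6.62, 5.81 and 5.55 in WT bleomycin and 3.66, 3.14, 5.22 and 5.74 in CB1R KO bleomycin lungs (2.33-fold, log2 fold change 1.22 ± 0.21 (SE), adjusted p = 0.000239). The 3 listed subunits of DNA polymerase delta did not pass the test and had overlapping groups. Pold1, the catalytic subunit, was at 29.7, 30.7, 29.9 and 29.8 CPM in control, 29.8, 29.1, 32.7, 33.6 and 28.3 in WT bleomycin and 28.6, 24.9, 33.4 and 41.1 in CB1R KO bleomycin lungs (log2 fold change 0.03 ± 0.12 (SE), adjusted p = 0.843, 95% interval -0.22 to 0.28). Pold2 was at 19.1, 20.5, 19.02 and 20.9 CPM in control, 21.9, 20.7, 21.4, 23.9 and 22.03 in WT bleomycin and 18.5, 19.6, 23.5 and 24.7 in CB1R KO bleomycin lungs (log2 fold change 0.14 ± 0.09 (SE), adjusted p = 0.207, 95% interval -0.05 to 0.34). Pold3 was at 28.4, 30.2, 28.7 and 30.4 CPM in control, 30.03, 30.5, 30.3, 29.8 and 28.4 in WT bleomycin and 32.4, 29.4, 29.7 and 30.2 in CB1R KO bleomycin lungs (log2 fold change 0.02 ± 0.06 (SE), adjusted p = 0.802, 95% interval -0.10 to 0.14). The upper bounds of the intervals of the delta subunits reached at most 0.34 in log2, while the lower bound for Pole was 1.43.

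**Figure D3:**
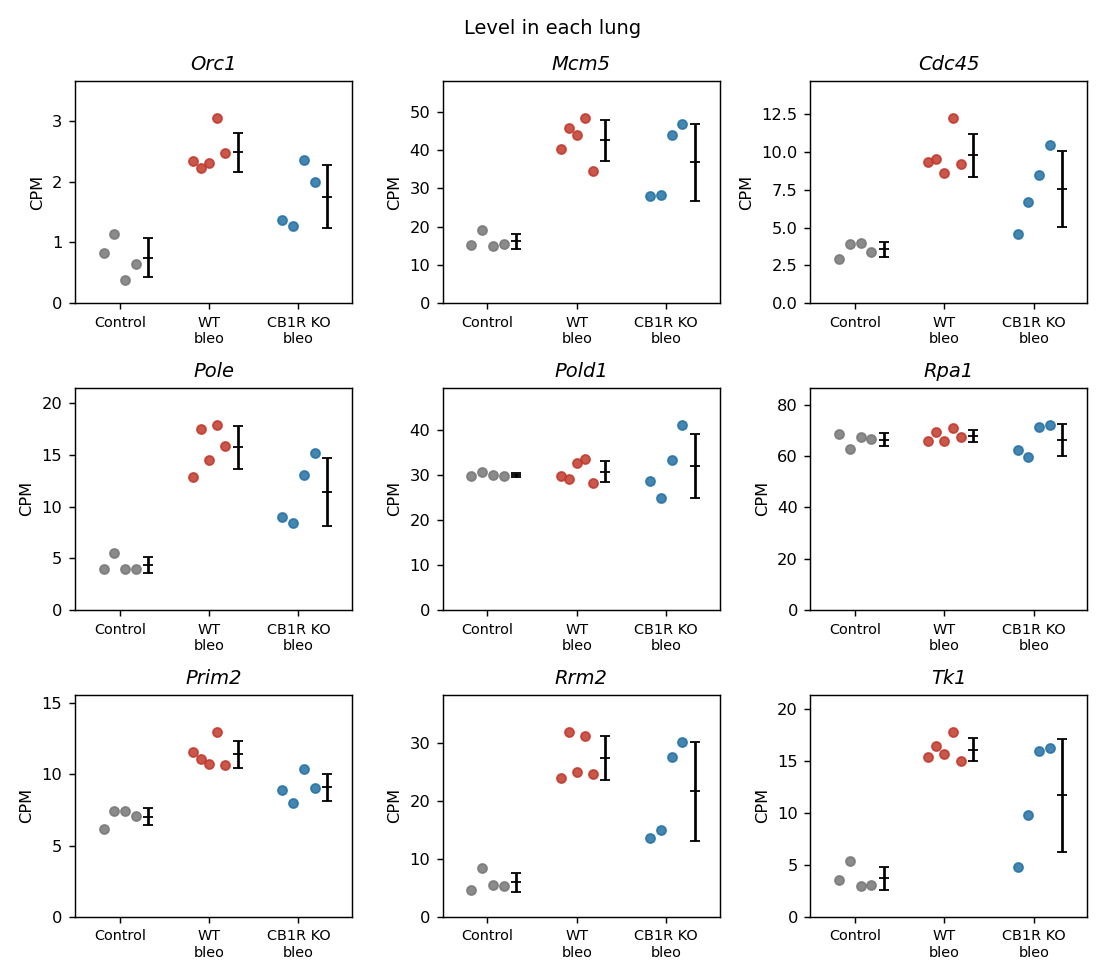
CPM of 9 of the genes in each lung (vertical axes start at 0), with the mean and SD of each group to the right of its points. WT bleomycin lungs lie above control lungs in Orc1, Mcm5, Cdc45, Pole, Prim2, Rrm2 and Tk1, and the groups overlap in Pold1 and Rpa1.

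The sliding clamp Pcna rose 1.63-fold, from 68.6 to 77.5 CPM in control to 103 to 132 in WT bleomycin lungs. Of the 5 subunits of the clamp loader, which opens the ring around DNA, 3 of the 4 small subunits, Rfc3, Rfc4 and Rfc5, rose. Rfc4 was at 4.34, 3.42, 3.78 and 4.19 CPM in control, 6.53, 8.59, 6.81, 8.10 and 8.21 in WT bleomycin and 4.97, 6.33, 6.90 and 9.36 in CB1R KO bleomycin lungs (1.94-fold, log2 fold change 0.96 ± 0.18 (SE), adjusted p = 0.000484). Rfc5 was at 9.45, 11.2, 10.7 and 9.79 CPM in control, 16.3, 15.3, 18.2, 22.8 and 18.3 in WT bleomycin and 14.1, 12.6, 16.6 and 15.5 in CB1R KO bleomycin lungs (1.77-fold, log2 fold change 0.82 ± 0.12 (SE), adjusted p = 8.26e-05). Rfc3 was at 6.18, 7.75, 6.21 and 4.83 CPM in control, 10.2, 8.65, 12.1, 14.4 and 9.69 in WT bleomycin and 8.44, 7.06, 8.32 and 10.2 in CB1R KO bleomycin lungs (1.76-fold, log2 fold change 0.81 ± 0.17 (SE), adjusted p = 0.00145). WT bleomycin and control lungs did not overlap in any of the 3. Rfc1, the large subunit, was at 60.6, 53.5, 56.1 and 54.8 CPM in control, 56.1, 55.1, 50.4, 49.6 and 51.5 in WT bleomycin and 51.1, 53.4, 56.5 and 53.6 in CB1R KO bleomycin lungs, and did not pass the test (log2 fold change -0.10 ± 0.06 (SE), adjusted p = 0.192, 95% interval -0.23 to 0.03). Rfc2 was at 14.2, 12.3, 13.3 and 16.8 CPM in control, 16.5, 16.3, 19.8, 21.2 and 14.3 in WT bleomycin and 16.7, 15.6, 15.5 and 8.68 in CB1R KO bleomycin lungs (log2 fold change 0.32 ± 0.18 (SE), adjusted p = 0.157). CB1R KO mouse 11, the deeply sequenced library, was far below the rest for Rfc2, and without it the rise of WT bleomycin lungs over control passed the test (adjusted p = 0.0435).

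Among the genes of single-strand binding and fragment joining, the enzymes that join Okazaki fragments rose and the subunits of replication protein A did not pass the test. Lig1, the replicative DNA ligase, was at 16.4, 20.7, 15.9 and 17.6 CPM in control, 34.7, 41.3, 37.4, 46.6 and 32.5 in WT bleomycin and 22.8, 24.4, 34.1 and 39.8 in CB1R KO bleomycin lungs (2.18-fold, log2 fold change 1.12 ± 0.16 (SE), adjusted p = 6.23e-05). Fen1, the nuclease that trims the flaps between fragments, was at 12.3, 12.6, 11.97 and 13.7 CPM in control, 21.5, 23.2, 22.4, 29.8 and 22.5 in WT bleomycin and 15.5, 15.2, 22.5 and 28.5 in CB1R KO bleomycin lungs (1.89-fold, log2 fold change 0.91 ± 0.17 (SE), adjusted p = 0.000536). All 9 treated lungs were above the 4 control lungs in both. Replication protein A coats single-stranded DNA in replication and in repair. Its large subunit Rpa1 was at 68.5, 62.7, 67.3 and 66.5 CPM in control, 65.7, 69.3, 65.8, 70.9 and 67.4 in WT bleomycin and 62.1, 59.6, 71.2 and 72.1 in CB1R KO bleomycin lungs (log2 fold change 0.03 ± 0.06 (SE), adjusted p = 0.689, 95% interval -0.10 to 0.17). Rpa2 was at 12.7, 13.8, 14.2 and 12.5 CPM in control, 13.9, 16.1, 15.6, 16.6 and 16.4 in WT bleomycin and 11.9, 12.8, 16.4 and 18.5 in CB1R KO bleomycin lungs (log2 fold change 0.24 ± 0.12 (SE), adjusted p = 0.124, 95% interval -0.02 to 0.50). Rpa3 was at 10.3, 11.6, 9.22 and 10.1 CPM in control, 11.1, 10.9, 10.2, 11.6 and 12.5 in WT bleomycin and 10.4, 9.53, 11.8 and 14.8 in CB1R KO bleomycin lungs (log2 fold change 0.12 ± 0.13 (SE), adjusted p = 0.455, 95% interval -0.15 to 0.40). The groups overlapped in all 3 subunits, and Rpa2 passed the test when edgeR was run on these 2 groups alone (adjusted p = 0.0439).

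Deoxynucleotide supply held the 2 largest rises of the 42 genes, those of Rrm2 and Tk1. Rrm2, the small subunit of ribonucleotide reductase that is made in S phase, was at 4.58, 8.35, 5.44 and 5.35 CPM in control, 23.9, 31.9, 25.00, 31.1 and 24.6 in WT bleomycin and 13.6, 15.02, 27.5 and 30.2 in CB1R KO bleomycin lungs. It rose 4.59-fold, and the lowest treated lung was above the highest control lung (log2 fold change 2.20 ± 0.25 (SE), adjusted p = 7.87e-06). Tk1, the cytosolic thymidine kinase, was at 3.51, 5.35, 3.01 and 3.03 CPM in control, 15.4, 16.5, 15.7, 17.9 and 15.1 in WT bleomycin and 4.84, 9.77, 15.97 and 16.2 in CB1R KO bleomycin lungs (4.31-fold, log2 fold change 2.11 ± 0.30 (SE), adjusted p = 4.73e-05). CB1R KO mouse 8 stood within the control range for Tk1, and mouse 9 stood between the control and WT bleomycin lungs. Tyms, which makes thymidylate, was at 6.30, 7.45, 6.47 and 6.12 CPM in control, 11.97, 10.8, 10.6, 9.76 and 10.5 in WT bleomycin and 9.68, 7.12, 11.00 and 7.03 in CB1R KO bleomycin lungs (1.63-fold, log2 fold change 0.70 ± 0.14 (SE), adjusted p = 0.00105). Here the low CB1R KO lungs were mice 9 and 11, both within the control range. Rrm1, the large subunit of the reductase, rose 2.20-fold and Dut 1.62-fold in WT bleomycin lungs, without overlap with control lungs.

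**Figure D4:**
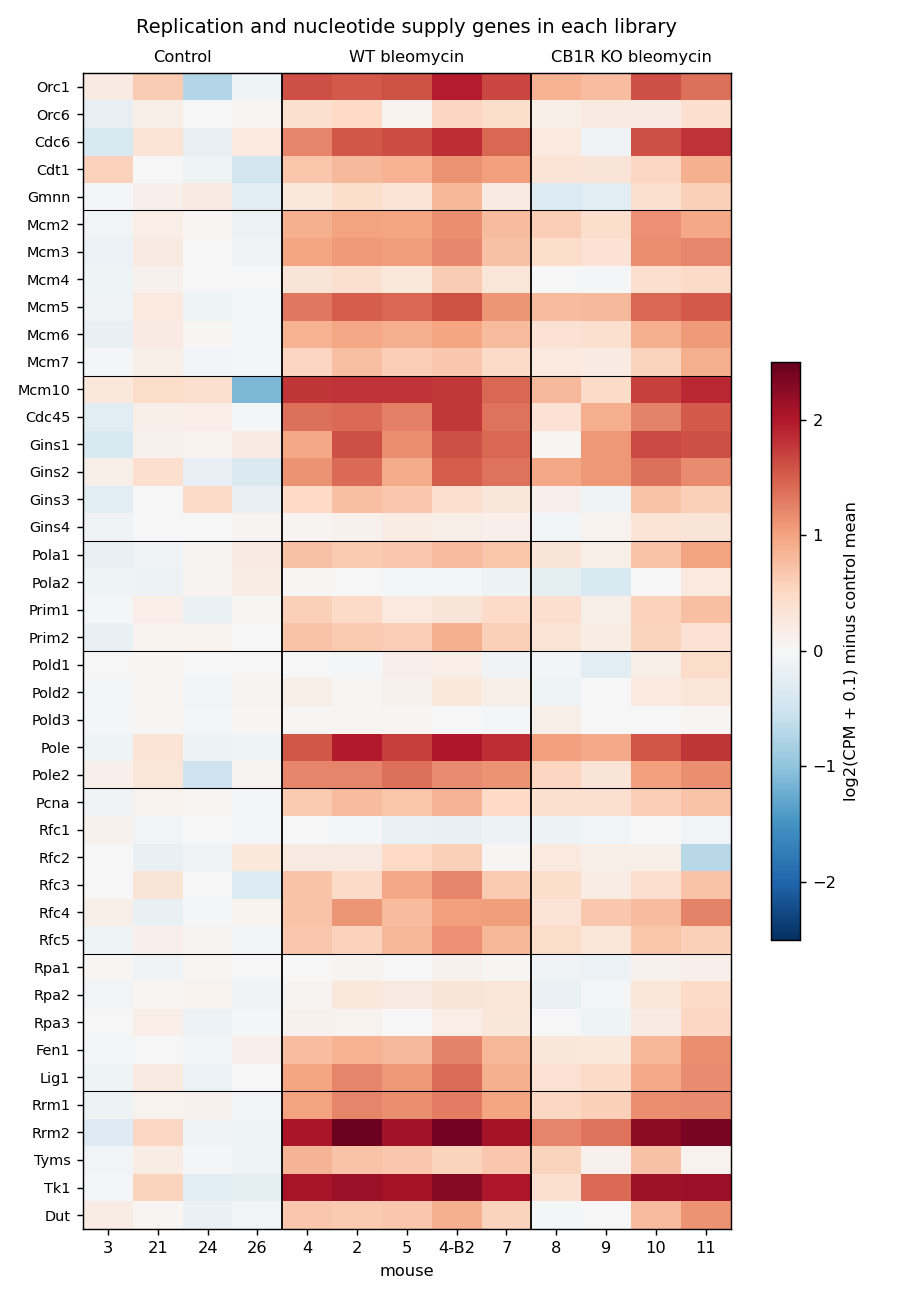
Each of the 42 genes (rows, by role, divided by thin lines) in each of the 13 lungs (columns, named by mouse), as log2(CPM + 0.1) minus the mean of the 4 control lungs. The 5 WT bleomycin columns are red in most rows, and among the CB1R KO columns mice 8 and 9 are paler than mice 10 and 11.

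Ratios of functionally paired genes were then computed in each mouse from TPM. Orc2, Rrm2b and Tk2, which enter 4 of the ratios, are not among the 42 genes. Of the 13 ratios, 8 differed between WT bleomycin and control lungs (two-sided exact permutation test, n = 5 and 4, p = 0.00794 each, the smallest this design allows, and 0.0344 after adjustment over 39 tests). The ratio of Rrm2 to Rrm2b, the p53-induced small subunit that serves resting cells and repair, had a group mean (back-transformed from log2) of 0.222 in control lungs and 1.61 in WT bleomycin lungs. Tk1 to the mitochondrial thymidine kinase Tk2 went from 0.250 to 1.54. In these group means the form of each enzyme made in S phase was the scarcer of the pair in control lungs and the more abundant in WT bleomycin lungs. Rrm2 to Rrm1 went from 0.339 to 0.689, and Orc1 to Orc2, a core subunit of the origin recognition complex, from 0.0295 to 0.0900. Pola1 to Pola2 went from 0.148 to 0.290, and Mcm10 to Mcm2 from 0.0680 to 0.116. In the other direction, Pold1 to Pole went from 11.9 to 3.64 and Rfc1 to Rfc4 from 3.62 to 1.68. The ratios Gmnn to Cdt1, Orc6 to Orc2, Cdc6 to Mcm2, Prim1 to Prim2 and Rpa1 to Rpa2 did not pass, with adjusted p from 0.0696 to 0.232. With any 1 control or WT bleomycin lung left out, the 8 ratios no longer passed either (adjusted p 0.0696 to 0.0929). Fewer mice raise the smallest p that this test can reach.

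**Figure D5:**
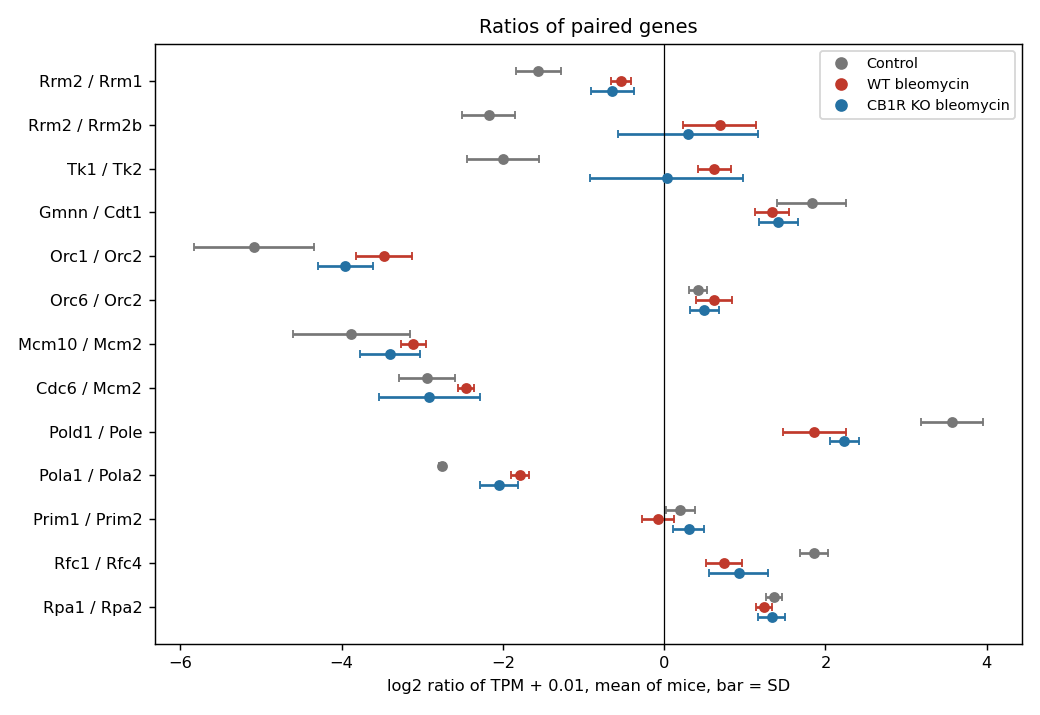
Log2 ratio of TPM (with 0.01 added) for 13 pairs of genes, as the mean of the mice of each group with SD bars, with control in grey, WT bleomycin in red and CB1R KO bleomycin in blue. For Rrm2 to Rrm2b and Tk1 to Tk2 the control mean lies below 0 and the WT bleomycin mean above it, and for Pold1 to Pole the WT bleomycin mean (1.86) lies below the control mean (3.57).

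The second question was whether the deletion of CB1R changed these genes in treated lungs. None of the 42 passed the test between CB1R KO and WT bleomycin lungs (edgeR, 0 higher and 0 lower), and DESeq2 called 0 as well. Of all genes tested, 0.979% passed in this comparison with edgeR, 0.359% higher and 0.620% lower. With edgeR that was 150 of 15315 genes, while DESeq2 called 644 of 20270, 272 of them higher. At an unadjusted p under 0.05, edgeR gave 6 lower genes (14.3%) and 0 higher among the 42, against 9.08% lower of all genes, and DESeq2 gave 7 lower (16.7%, against 7.34% of all genes). The 6 were Prim2, Pole, Rfc5, Tyms, Lig1 and Rfc3, with adjusted p from 0.149 to 0.292. Prim2 had the lowest p of the 42 and was the only 1 of them in which every CB1R KO lung (8.02 to 10.4 CPM) lay below every WT bleomycin lung (10.7 to 13.01 CPM), with a log2 fold change of -0.33 ± 0.11 (SE, adjusted p = 0.149). Such a separation was seen in 3.10% of all genes. For Pole the log2 fold change was -0.45 (95% interval -0.82 to -0.07), for Tyms -0.31 (-0.61 to -0.01), for Lig1 -0.34 (-0.67 to -0.0023), for Rfc3 -0.36 (-0.72 to -0.0007) and for Rfc5 -0.30 (-0.56 to -0.05). Over the 42 the median was -0.16, with 36 below 0 and 6 above, against 49.9% of all genes below 0. The fitted intervals leave room for sizeable differences: for Rrm2 the interval was -0.80 to 0.15 and for Tk1 -1.01 to 0.12.

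The 4 CB1R KO lungs did not form 1 level. The median over the 42 genes of the log2 level relative to control lungs was 0.33 in mouse 8, 0.22 in mouse 9, 0.71 in mouse 10 and 0.90 in mouse 11, while the 5 WT bleomycin lungs ran from 0.68 to 0.95 and the control lungs from -0.06 to 0.12. Mouse 8 was below every WT bleomycin lung in 34 of the 42 genes (81.0%, against 25.1% of all genes tested), mouse 9 in 35 (83.3%, against 24.5%), mouse 10 in 5 (11.9%, against 16.4%) and mouse 11 in 4 (9.52%, against 22.3%). These mice were singled out after their values were seen, and their counts were not tested. The median difference between CB1R KO and WT bleomycin lungs depended on which CB1R KO mouse was left out: it was -0.309 without mouse 11, -0.276 without mouse 10, -0.095 without mouse 8 and -0.094 without mouse 9. The count of lower genes at an unadjusted p under 0.05 went from 6 to 21 without mouse 11 (50%, against 9.21% of all genes) and to 10 without mouse 10 (23.8%, against 10.2%). It was 3 without mouse 8 (7.14%, against 6.69%), 1 without mouse 9 (2.38%, against 7.19%), 2 without WT bleomycin mouse 4-B2 (4.76%, against 7.07%) and 1 with lower-case libraries alone (2.38%, against 5.62%). The adjusted count was 0 of the 42 in each of these fits, most of which called few genes of any kind. Of all genes tested, 3 passed without mouse 11, 653 without mouse 10, 9 without mouse 8 and 1 without mouse 9. Without WT bleomycin mouse 4-B2 30 passed, and with lower-case libraries alone 6 passed. The 6 markers of dividing cells (Mki67, Top2a, Cdk1, Ccnb1, Aurkb and Birc5) also spread widely among the CB1R KO lungs, with summed levels of 14.2 to 21.8 TPM in control, 92.9 to 147.1 in WT bleomycin and 52.9 to 166.0 in CB1R KO bleomycin lungs.

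Of the 13 ratios, 1 differed between CB1R KO and WT bleomycin lungs: Prim1 to Prim2 was 1.24 in CB1R KO and 0.950 in WT bleomycin lungs (exact permutation p = 0.00794, adjusted 0.0344). The adjustment was made over the ratios of all 3 comparisons together, and no ratio passed here with any 1 of the 13 libraries left out, controls included. For Pola1 to Pola2, at 0.242 against 0.290, the adjusted p was 0.109. Rrm2 to Rrm2b, at 1.23 against 1.61, and Tk1 to Tk2, at 1.02 against 1.54, had adjusted p of 0.464 and 0.343.

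The third question was which of the genes still differed from control in treated CB1R KO lungs. Of the 42, 24 rose, 0 fell and 18 did not pass the test, against 35.4% of all genes that passed, 19.0% higher and 16.3% lower. In 19 of the 42 every CB1R KO lung was above every control lung, which held for 17.7% of all genes. The median log2 fold change of the 42 was 0.53. This comparison shares its control lungs with that of WT bleomycin lungs, so the values are given side by side and not counted against each other. The largest rises were those of Rrm2, at 1.88 in CB1R KO and 2.20 in WT bleomycin lungs, Tk1 at 1.67 and 2.11, and Pole at 1.40 and 1.85. Cdt1 (0.50 and 0.87), Rfc3 (0.45 and 0.81), Tyms (0.39 and 0.70), Dut (0.57 and 0.70), Gins3 (0.36 and 0.52), Mcm4 (0.23 and 0.39) and Orc6 (0.25 and 0.40) did not pass in CB1R KO lungs, with adjusted p from 0.0507 for Dut to 0.2 for Gins3. As above, no difference between the genotypes passed the test for these genes. The call of Cdc6 was not stable, at 1.15 (adjusted p = 0.0246) with all mice, 0.97 (0.0715) without mouse 10 and 0.78 (0.115) without mouse 11. It was also lost without control mouse 3 (0.0627) or 24 (0.0637) and with lower-case libraries alone (0.0542). The same held for edgeR on these 2 groups alone (0.0628) and for limma fits to TPM (0.057 to 0.0944). None of the 13 ratios passed in this comparison, whose smallest p with 4 mice against 4 (0.0286) is 0.0696 after adjustment.

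Other genes of the pathway were read from 5 lists. Of all genes tested, 25.0% rose and 23.9% fell in WT bleomycin against control lungs, and the counts below are to be read beside these shares. Of 34 other replication factors, 15 rose in WT bleomycin lungs and 0 fell. Among them Pclaf, which binds Pcna, rose 6.13-fold (2.45 to 3.67 CPM in control, 16.03 to 22.3 in WT bleomycin lungs) and Clspn, the fork protein claspin, 5.93-fold (1.73 to 3.31 against 10.7 to 17.4). Of 31 other genes of nucleotide synthesis, 12 rose and 5 fell. Ctps, which makes CTP, rose 2.84-fold and the nucleoside diphosphate kinase Nme2 1.75-fold. In contrast, Rrm2b was 0.577 of its control level (51.4 to 55.5 CPM in control, 26.5 to 34.8 in WT bleomycin lungs) and Dguok, the mitochondrial deoxyguanosine kinase, 0.668 (21.6 to 27.4 against 15.2 to 18.2), both past the test. Tk2, the mitochondrial thymidine kinase, also fell (0.738), so in the pairs of Rrm2 with Rrm2b and of Tk1 with Tk2 the second gene fell as the first rose.

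Of 29 genes of S phase entry and E2F control, 18 rose and 5 fell in WT bleomycin lungs. Cdkn1a, the p53-induced inhibitor of cyclin-dependent kinases, rose 5.24-fold (40.1 to 85.2 CPM in control, 262.8 to 303.7 in WT bleomycin lungs) and cyclin D1 (Ccnd1) 1.84-fold. The inhibitor Cdkn1b fell to 0.607 and the pocket protein Rbl2 to 0.733 of control. Of 13 genes of replication-coupled chromatin, 9 rose and 0 fell, among them Uhrf1, which guides maintenance DNA methylation, at 4.79-fold and Chaf1b, a subunit of the histone chaperone CAF-1, at 2.83-fold. Of 26 genes of fork protection and recombination, 14 rose and 1 fell. Brca1 rose 4.16-fold and Rad51ap1 5.28-fold. Fancb, of the Fanconi anaemia core complex, was at 0.715 of control (adjusted p = 0.0399), a call that was lost under 13 of the alternatives tried. Between CB1R KO and WT bleomycin lungs, 0 genes of any of the 5 lists passed the test with edgeR, against 0.979% of all genes. The counts at an unadjusted p under 0.05 were 1 higher and 1 lower among the other replication factors, 1 and 4 in nucleotide synthesis, 3 and 4 in S phase entry, 0 and 2 in chromatin, and 0 and 0 in fork protection. Of all 15315 genes tested, 1218 were higher and 1390 (9.08%) lower at that p. The lowest adjusted p was 0.053 for Uck2, a uridine-cytidine kinase, chosen after its value was seen, at a log2 fold change of -0.57.

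E2F octamers were also present in the promoters of the other lists, in 8 of 27 genes of the other replication factors (29.6%), 7 of 21 of S phase entry (33.3%), 4 of 13 of chromatin (30.8%), 3 of 18 of fork protection (16.7%) and 1 of 27 of nucleotide synthesis (3.7%). Within the 42, they were present in 12 of the 26 genes with a promoter entry that rose and in 2 of the 8 that did not pass the test, Pold1 and Pold3. Numbers this small were not tested.

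Markers of other cells moved with the same contrast, and their part in the rise of the replication genes was not tested. Of all genes tested, 25.0% rose and 23.9% fell in WT bleomycin against control lungs. In WT bleomycin against control lungs, 6 of 6 markers of dividing cells rose, from 4.63-fold for Birc5 to 9.65-fold for Ccnb1, and 6 of 6 markers of monocyte-derived macrophages rose, with summed levels of 865.5 to 996.2 TPM in control, 3112 to 3585 in WT bleomycin and 2334 to 3815 in CB1R KO bleomycin lungs. Of the fibroblast markers 2 of 5 rose (Col1a1 and Col1a2) and 1 fell (Tcf21), and of the germinal centre B cell markers 2 of 4 tested rose. Type II cell markers fell in 5 of 6, endothelial markers in 5 of 5 and erythroid markers in 4 of 5. Of the remaining lists, 1 of 5 type I cell markers rose and 2 fell, 1 of 5 B and plasma cell markers rose and 3 fell, and none rose among club and ciliated cells (3 of 5 fell), alveolar macrophages (2 of 6), T and NK cells (2 of 5 tested), adipocytes (2 of 4 tested), neutrophils (2 of 3 tested) and thymocytes (1 of 2 tested). Among the thymocyte markers, Rag1, Rag2, Dntt and Ptcra were too low to be tested, as were Mpo and Elane of immature neutrophils. Against WT bleomycin lungs, CB1R KO lungs were higher in 3 of 6 type II cell markers, 1 of 5 endothelial markers and 1 of 5 T and NK cell markers, and 0 of 6 markers of dividing cells or of monocyte-derived macrophages passed the test. In this comparison 0.359% of all genes were called higher. Only 1 gene of any kind was called higher without CB1R KO mouse 8, 0 without mouse 9 and 1 without mouse 11. With lower-case libraries alone it was also 1, so most of these marker calls were lost in each of those fits.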

How the data were processed

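RNA from 13 mouse lungs was sequenced as poly(A)-selected, paired-end libraries. The authors quantified the reads with Kallisto on the mouse reference of build GRCm39, added up the protein-coding transcripts per gene, and deposited estimated counts and TPM (transcripts scaled for length and library) values. Of the count values, 62.1% were not whole numbers (tolerance 0.01). The single-sample files equalled the series tables in 13 of 13 cases, and 1 per-sample column of the TPM table matched no sample and was not used. Samples were grouped by their labels, which number the mice.

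Estimated counts were rounded to whole numbers. Genes were filtered with filterByExpr, scaled by TMM and tested in edgeR 4.0.16 (R 4.3.3) with the quasi-likelihood test over all 13 libraries in 3 groups, without covariates, with Benjamini-Hochberg adjustment over all 15315 genes and a threshold of 0.05. CPM are counts scaled to the library total after TMM. SE was derived from the test, as the absolute log2 fold change divided by the square root of its F statistic. The 95% intervals were built from this SE with the t distribution. Ratios used log2(TPM + 0.01), with two-sided exact permutation tests in which p-values were adjusted over 39 tests. On simulated data with 200 changed genes among 13623, edgeR called 199 of them in the right direction for WT bleomycin against control. For CB1R KO against WT bleomycin it called 197, and 12 unchanged genes were called in each. In the real data, the log2 fold changes of the 42 genes between CB1R KO and WT bleomycin lungs ran from -0.487 to 0.07. Recovery of differences that small, with the spread seen among the CB1R KO lungs, was not tested.

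The 42 genes, the 5 lists of other pathway genes, the 15 marker lists and the tests were chosen with earlier results of these data known. Genes named with all their values were the 2 per role with the largest change after bleomycin, the 6 with the lowest p between CB1R KO and WT bleomycin lungs, and all that did not pass the test after bleomycin. From each other pathway list came the 2 most significant genes called higher and the 2 called lower, and Cnr1 was added. Alternatives were other filters, normalizations and tools (DESeq2 1.42.0, limma 3.58.1 on TPM), the style of the labels, thinning of the deepest library, and leaving out each library in turn. Counting error is smallest in CB1R KO mouse 11, and the number of mice limits the precision in the rest. A planned comparison of protein sequences was not made here.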

Additional observations from a re-analysis of the deposited data

Results flagged for a closer look

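Among 29 named genes in 3 groups each (87 checks), 6 values, from 4 lungs, stood apart from the others of their group by Dixon's test, which chance does in about 1 of 20 groups. Control mouse 21 was high for Mcm5, at 19.11 CPM against 14.92 to 15.46 in the other control lungs, and for Pole, at 5.528 CPM against 3.97 to 3.995. WT bleomycin mouse 4-B2 was high for Cdc45, at 12.25 CPM against 8.625 to 9.513 in the other WT bleomycin lungs, and for Fen1, at 29.83 CPM against 21.54 to 23.16. WT bleomycin mouse 7 was low for Mcm10, at 4.69 CPM against 5.952 to 6.125. CB1R KO mouse 11 was low for Rfc2, at 8.675 CPM against 15.53 to 16.68 in the other CB1R KO lungs, in a library in which most of the replication genes were high.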

How the results depend on the processing

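Over all alternatives, 26 to 33 of the 42 genes rose in WT bleomycin against control lungs (median log2 fold change 0.691 to 0.812), 22 to 28 rose in CB1R KO bleomycin against control lungs (0.449 to 0.603), and 0 passed between CB1R KO and WT bleomycin lungs (-0.309 to -0.094). In the last of these comparisons 1 to 653 of all genes passed. Genes near 0 changed sign without passing the test: Pola2 was at 0.0519 with lower-case libraries alone and at -0.0911 to 0.0098 with each library left out (above 0 only without control mouse 26), and Pold3 was at -0.0004, -0.0007 and -0.0004 in the fits of limma to log2(TPM + 1), log2(TPM + 0.1) and log2(TPM + 1) without a filter. In those fits Pola2 was at -0.212, -0.2229 and -0.212 (adjusted p 0.0725 to 0.0848). Gmnn also passed the test with DESeq2 on 2 groups (adjusted p = 0.028). In WT bleomycin against control lungs Orc6, Mcm4 and Dut missed it under 1 alternative each and Prim1 under 2. In CB1R KO against control lungs Prim1 missed it under 1, Prim2 under 2, Mcm7 under 3 and Cdc6 under 9. With CPM in place of TPM, 2 ratios differed between CB1R KO and WT bleomycin lungs. With each library left out in turn, 0 to 8 ratios differed between WT bleomycin and control lungs, and 0 whenever the library was from either of these groups. Between CB1R KO and WT bleomycin lungs, 0 differed in every case. Leaving out a mouse of either group compared raises the smallest p that can be reached, while leaving out a control lung changes the second comparison only through the adjustment over all 39 tests. No paired analysis was possible because the groups share no replicate numbers. Groups of 4 and 5 mice, the spread among the CB1R KO lungs and the lack of CB1R KO lungs without bleomycin limit these comparisons.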
